A study of Mus musculus with 20 samples.

Results

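The messenger RNAs of the translation initiation and elongation factors were followed in ribosome-associated RNA of mouse hippocampal granule cells over the first postnatal weeks. The members are the 70 gene symbols, of 32245 in the count table, that begin with Eif1 to Eif6 or with Eef1 or Eef2, pseudogene names left out. Of the 70, 66 had enough counts to be tested, and Eif3j2, Eif4e1b, Eef1akmt3 and Eif2c5 did not. Eif2c5 matches by spelling alone: it is annotated as a long noncoding RNA and had 0 counts in all 20 libraries.

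All mice carried Rbp4-Cre and the RiboTag allele, so that RPL22, a ribosomal protein, bears an HA tag in cells with Cre, and ribosomes were pulled from hippocampal lysate with anti-HA beads. Postnatal day 5 (P5) has 5 libraries, and P7, P10, P15, P21 and P28 have 3 each. The labels give 3 batch dates, here called batches A to C. Batch A holds 3 P5 libraries and those of P10 and P15, batch B holds 2 P5 libraries and those of P7, and batch C holds those of P21 and P28, so that in a comparison of P21 or P28 with a younger age the age and the batch cannot be told apart. The groups share the genotype, differ in age, and have no unselected RNA or Cre-negative pull-down analysed here. Whether replicate libraries stem from different animals is not in the labels. At P10, P15 and P21 some libraries held Y-linked RNA and others almost none (values below). The libraries of these ages therefore do not all hold RNA of the same animals. The p-values hold for the spread between libraries, which at the other ages may be technical alone. Total counts were 15.9 to 24.9 M per library, at which 3 counts equal 0.12 to 0.189 CPM (counts per 1 M library counts), a limit that covers counting error only.

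Initiation factors bring the small ribosomal subunit, the initiator tRNA and the capped end of the mRNA together. eIF4E binds the cap, eIF4G is the scaffold, eIF4A is the RNA helicase, eIF2 carries the initiator tRNA, and eIF3 bridges the subunit and the mRNA. During elongation eEF1A delivers each aminoacyl-tRNA, the eEF1B complex recharges eEF1A with GTP, and eEF2 moves the ribosome by a codon. Neurons regulate these steps locally at synapses, and eEF1A2 is known as the isoform that takes over from eEF1A1 in neurons and muscle after birth. Many mRNAs of the translation machinery start with a 5′ terminal oligopyrimidine (TOP) tract, a C followed by further C or T bases, through which the kinase mTORC1 controls their own translation.

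The TOP tract was the sequence feature searched in the members, because it is how translation factor mRNAs are known to be regulated as a class. A C at the first base of an annotated coding transcript followed by at least 4 bases that are each C or T, on the sense strand, was found in 9 of 68 members (13.2%) and in 1121 of 21901 genes (5.12%) of GENCODE release vM21 for the mm10 assembly. Genes with more annotated transcripts had more chances of a match: each of the 9 members carried it on 1 coding transcript, of 1 annotated for Eif2s1 and Eif3f, 2 for Eef1b2 and Eif2s3x, 3 for Eif3m, 6 for Eif4a2 and Eif4g2, 9 for Eif2b4 and 15 for Eef1d. At the starts of the RefSeq promoter table of GRCm38.p6, 2 of 53 members (3.77%), the noncoding Eif2c5 left out, and 813 of 27025 genes (3.01%) had it. These 2 were Eif2s3x and Eif3f, out of the 7 of the 9 members that this table holds, so Eef1b2, Eif2s1, Eif2b4, Eif4a2 and Eif3m have the tract at a GENCODE start but not at the RefSeq one. The first 24 bases of the 9 transcripts are shown with the tract in capitals, because 6 of these members later appear among those that fell.
Eef1b2: CTTTTTTTCCCTCagcgctggccg
Eef1d: CTCTCCTTTgcagtcctgagctcg
Eif2s1: CTCTTggttgactaaaacttaaag
Eif2s3x: CTTTTCTCTCCgagcaagatggct
Eif3f: CTCTTTCTCggcaagatggcttct
Eif4g2: CTTCTTacagtacatttctagtga
Eif2b4: CTCCCacctgcctcagtacagcag
Eif4a2: CTTTTCagtcgggcgctgagtggg
Eif3m: CTTTTCCggtcggcgtgtttctgg

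These stretches lie, in the mm10 assembly, at chr1:63177130-63177153 (plus strand) for Eef1b2, chr15:75909283-75909306 (minus) for Eef1d and chr12:78861819-78861842 (plus) for Eif2s1. That of Eif2s3x lies at chrX:94212628-94212651 (minus), that of Eif3f at chr7:108934417-108934440 (plus) and that of Eif4g2 at chr7:111074226-111074249 (minus). Those of Eif2b4, Eif4a2 and Eif3m lie at chr5:31191176-31191199 (minus), chr16:23107758-23107781 (plus) and chr2:105017020-105017043 (minus). All begin at an annotated transcript start in the first exon. The longest tract shown, of 13 bases, belongs to the GENCODE transcript of Eef1b2, and those of Eif2s1 and Eif2b4 have 5. Annotated starts can lie several bases from the real ones, so a missing match says only that these letters are not at the annotated base.

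Single members moved in both directions, and the translation factors together took a share of the raw counts that was higher at P5 than at the later ages. P5 had the highest share of all raw counts, 1.22% ± 0.018 (SD, n = 5), and P7 the lowest, 1.08% ± 0.017 (n = 3). P10 had 1.13% ± 0.016, P15 1.1% ± 0.015, P21 1.09% ± 0.024 and P28 1.15% ± 0.029. The trimmed-mean scaling behind the CPM values multiplies the library totals by 1.01 to 1.09 at P5. The factors are 0.913 to 0.987 at P7 and 0.986 to 1.01 at P28. How the ages rank in this share therefore depends on the scaling. In edgeR's quasi-likelihood test with Benjamini-Hochberg adjustment over 15373 genes, 56 of the 66 tested members differed between ages, where 79.7% of all genes did. The 10 that did not pass were Eif2s3y, Eif2ak3, Eif2ak4, Eif2b1, Eif4e, Eif4e3, Eif5, Eef1d, Eef1akmt2 and Eef1aknmt. Eif4e, the cap-binding protein, had a mean of 96.4 ± 5.7 CPM (SD, n = 5) at P5, 97.8 ± 6.5 (n = 3) at P15 and 103 ± 3.1 at P28. Eif5, whose product makes eIF2 hydrolyse its GTP at the start codon, measured 196 ± 6.0, 200 ± 1.3 and 194 ± 4.5 CPM at the same ages.

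**Figure D1:**
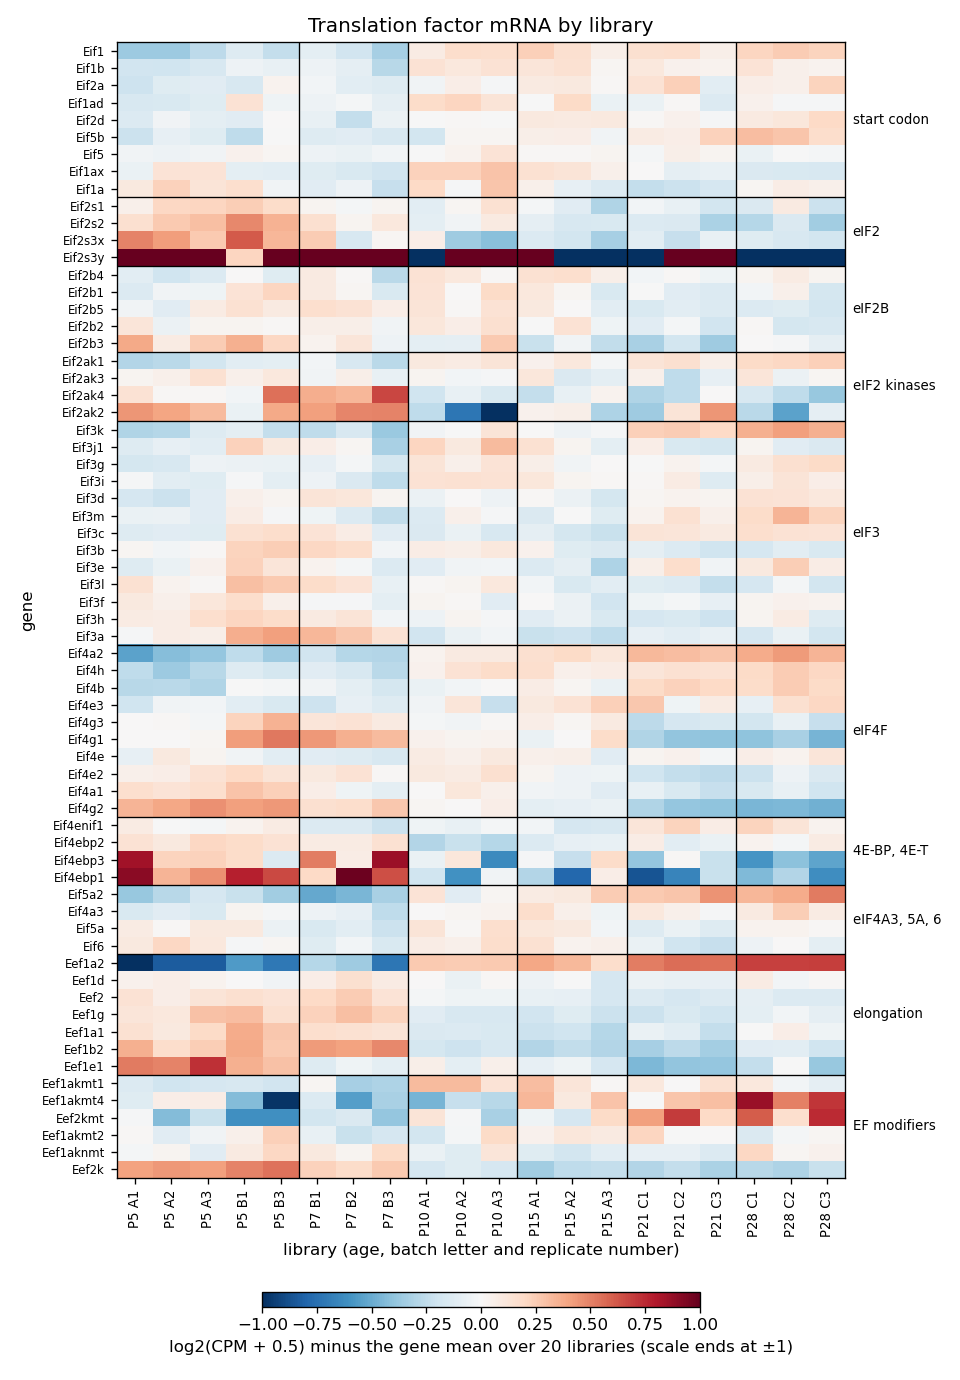
Level of the 66 tested members (rows, by role and within a role by their change from P5 to P15) in each of the 20 libraries (columns, by age, with batch letter and replicate number). Color is log2(CPM + 0.5) minus the mean of the gene over the libraries, cut at 1 either way; Eef1a2 and Eif4a2 turn from blue to red with age, Eif4g2, Eef2k and Eef1b2 from red to blue, and Eif2s3y switches between libraries of the same age.

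From P5 to P15, the longest span within a single batch, 18 members rose, 20 fell and 28 did not pass. Of all genes tested, 31.6% rose and 31.8% fell in this comparison (63.4% called), so the members were called at a rate near that of all genes. Their changes were small. Of the 38 called members, 2 changed by at least 2-fold, Eef1a2 upward and Eif4ebp1 downward, and the median size of a called change was 0.29 on the log2 scale. The median change of the tested members was -0.01, against -0.02 for all genes. With total counts in place of the trimmed-mean (TMM) scaling, the split was 9 higher and 32 lower. In that setting 9797 of 15373 genes were called, 39.2% of them higher. The median change of all genes went from -0.02 to -0.14. Directions of changes under about that size are therefore relative to the scaling.

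Of the 7 tested genes of the elongation group, 6 fell from P5 to P15 and 1, Eef1a2, rose, where 31.8% of all genes fell and 31.6% rose. The group includes Eef1e1, whose product belongs to the multi-tRNA synthetase complex, and the fall of Eef1d was lost in several settings given below. Eef1a2 encodes the neuronal and muscle form of the factor that brings aminoacyl-tRNA to the ribosome. It measured 390, 444, 443, 534 and 480 CPM in the P5 libraries, 648, 619 and 478 at P7, 946, 942 and 948 at P10, 1032, 989 and 892 at P15, 1125, 1164 and 1158 at P21, and 1271, 1266 and 1274 at P28. Every library from P10 on lay above every P5 and P7 library, and the P5 and P7 libraries overlapped. The log2 change was 1.19 from P5 to P15 (SE 0.082, edgeR adjusted p = 1.2e-11) and 1.58 from P5 to P28 (SE 0.083, adjusted p = 4.32e-14). Most of the difference was in place at P10, where the change from P5 was 1.15 (SE 0.082, adjusted p = 2.98e-11). The step from P15 to P21, which also crosses from batch A to batch C, was 0.24 (adjusted p = 0.027), and it missed the threshold without P15 replicate 2 or 3 or without any 1 of the P21 libraries (adjusted p 0.0515 to 0.15).

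Eef1a1, the form found in most dividing and non-neuronal cells, took the opposite course at first. Its libraries measured 1838, 1773, 1890, 2137 and 1992 CPM at P5, 1865, 1840 and 1810 at P7, 1497, 1509 and 1489 at P10, 1423, 1445 and 1361 at P15, 1577, 1538 and 1406 at P21, and 1650, 1729 and 1606 at P28. All P10, P15 and P21 libraries lay below all P5 libraries, and the P28 libraries lay between the P15 and the P5 values without touching either. Eef1a1 fell by 0.38 on the log2 scale from P5 to P15 (SE 0.054, edgeR adjusted p = 1.43e-06). Its difference from P5 was smaller at P28, -0.14 (SE 0.054, adjusted p = 0.0221), and did not pass without P5 batch A replicate 3 (adjusted p = 0.0863), P28 replicate 1 (0.0626) or P28 replicate 3 (0.0987), or without the filter on low counts (0.0769).

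Per kilobase of transcript Eef1a1 stayed the more abundant of the pair at every age. At P5, Eef1a2 made up 17.0% ± 0.93 (SD, n = 5) of the summed level of both, and the P7 share was 21.3% ± 2.5 (n = 3). The share was 35.2% ± 0.23 at P10 and 37.2% ± 1.2 at P15, and both P21 (± 1.7) and P28 (± 0.97) gave 39.7%. The summed level was 1294 ± 102 CPM per kilobase at P5, 1252 ± 56.5 at P15 and 1536 ± 33.1 at P28. The log2 ratio of Eef1a2 to Eef1a1 counts in a library does not depend on scaling, and it averaged -2.08 ± 0.097 (SD, n = 5) at P5, -0.54 ± 0.074 (n = 3) at P15 and -0.39 ± 0.058 at P28. The difference was 1.54 for P15 and 1.69 for P28, with no overlap of libraries. The 2-sided exact permutation test of 5 against 3 libraries gave p = 0.0357, the smallest it can give, and 0.0536 after adjustment over 18 tests (9 pairs, 2 ages), which misses the threshold, or 0.0476 over 16 tests without the Eif3j pair, an alternative chosen after seeing the data. Against the 3 P5 libraries of batch A alone the difference to P15 was 1.57. The 2 transcripts are 80.5% identical over 1385 bases, while Eef1a1 has 8 other annotated genes, pseudogenes among them, with at least 95% identity over 300 bases or more, and how reads shared with these were counted is not given in the sources used here. In the mm10 annotation Eef1a1 lies on chromosome 9 from 78478449 to 78489151 and Eef1a2 on chromosome 2 from 181147653 to 181157014, both on the minus strand and protein-coding.

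**Figure D2:**
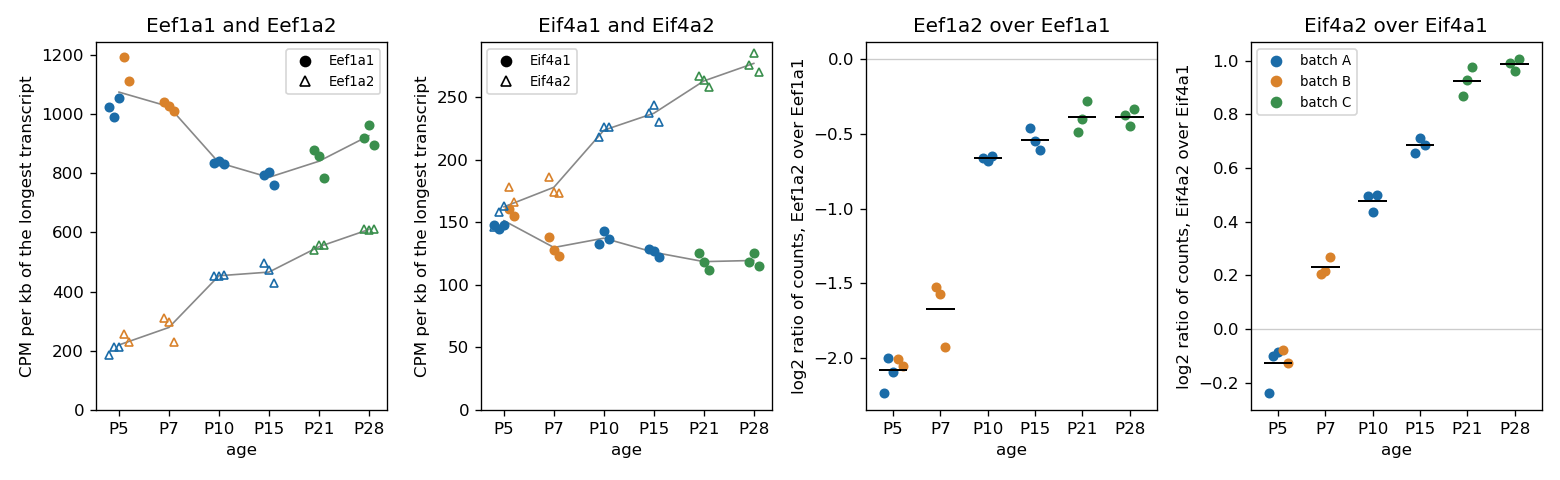
The Eef1a and Eif4a pairs by age: the left panels give CPM per kilobase of the longest transcript in each library with a line through the means, and the right panels the log2 ratio of counts of the second paralog to the first, with a bar at the mean. Points are libraries colored by batch; Eef1a2 goes from 17.0% to 39.7% of its pair between P5 and P28, and the Eif4a ratio changes sign after P5.

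Markers of maturation and of other cells moved over the same ages as the Eef1a pair. The 10 granule cell markers summed to 2421 to 2700 CPM at P5 and 3792 to 3994 at P15, with 7 of 10 higher, and the 6 immature neuron markers to 4090 to 4553 and 919 to 1130 CPM, with 6 of 6 lower. The 7 progenitor and cycling cell markers went from 222 to 376 CPM at P5 to 40.7 to 55.5 at P15, with 7 of 7 lower. Oligodendrocyte lineage markers (7 of 12 higher, 4 lower) summed to 190 to 268 CPM at P5 and 1074 to 1862 at P15, and astrocyte markers (4 of 8 higher, 1 lower) to 627 to 675 and 1212 to 1504 CPM. Endothelial and mural markers summed to 76.2 to 140 CPM at P5 and 36.8 to 50.7 at P15 (7 of 8 lower), microglial markers to 33.0 to 39.3 and 42.3 to 59.2 (5 of 8 higher), interneuron markers to 160 to 185 and 272 to 328 (6 of 8 higher) and those of CA pyramidal and mossy cells to 255 to 278 and 305 to 455 (3 of 8 higher). No marker of these lists was at 0 at any age. Fewer cells of a type and less RNA per cell cannot be told apart in such bulk RNA, and the part of these cells in the changes of the translation factors was not tested.

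The genes of the exchange complex fell as well. Eef1b2 encodes the exchange subunit that reloads eEF1A with GTP and has the longest TOP tract of those shown, at 1 of its 2 annotated GENCODE starts. It measured 128, 113, 119, 130 and 120 CPM at P5, 134, 132 and 139 at P7, 88.4, 86.2 and 89.3 at P10, 81.2, 83.8 and 81.5 at P15, 79.2, 83.3 and 78.7 at P21, and 92.1, 92.8 and 87.0 at P28. The P7 libraries lay above every P5 library and all later ones lay below them, with a log2 change of -0.54 from P5 to P15 (SE 0.054, edgeR adjusted p = 4.05e-09) and -0.40 to P28 (adjusted p = 4.07e-07). Eef1g, a structural subunit of the same complex, measured 161 ± 10.8 CPM (SD, n = 5) at P5 and 124 ± 4.1 (n = 3) at P15, a fall of 0.35 that passed the test (SE 0.056, adjusted p = 6.26e-06). Eef1d, another exchange subunit, went from 71.5 ± 2.1 to 66.8 ± 3.8 CPM, a change of -0.12 (adjusted p = 0.0437) that missed the threshold without the low-count filter (0.188), without P5 batch A replicate 1, 2 or 3 or without P15 replicate 3.

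Eef2, the translocase that moves the ribosome along the mRNA, and its inhibitory kinase both fell. Eef2 measured 1330, 1262, 1318, 1340 and 1320 CPM at P5 and 1143, 1135 and 1070 at P15, and its P28 values were 1127, 1095 and 1096. No P15 or P28 library reached a P5 value, and the log2 change was -0.22 from P5 to P15 (SE 0.049, edgeR adjusted p = 3.2e-04) and -0.24 to P28. Eef2k, the calcium- and calmodulin-dependent kinase that inactivates eEF2, measured 77.8, 79.2, 78.0, 82.9 and 85.6 CPM at P5, 68.9, 66.6 and 70.5 at P7, 52.1, 53.7 and 52.3 at P10, 46.0, 49.1 and 49.6 at P15, 47.6, 49.5 and 46.9 at P21, and 48.3, 47.2 and 50.1 at P28. Its groups did not overlap from P5 to P7 to P10, and from P15 on the values were level. The log2 change was -0.70 from P5 to P15 (SE 0.051, adjusted p = 1.71e-11) and -0.69 to P28 (SE 0.052, adjusted p = 1.31e-11).

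Eef1e1, whose product sits in the multi-tRNA synthetase complex, averaged 39.0 ± 4.7 CPM (SD, n = 5) at P5, 26.0 ± 0.80 (n = 3) at P7 and 25.8 ± 1.2 at P15 (log2 change to P15 -0.69, SE 0.084, edgeR adjusted p = 1.03e-07). Of the 6 tested genes of the kinase and methyltransferase group, Eef1akmt1 rose and Eef2k fell from P5 to P15, and at P28 Eef1akmt4 and Eef2kmt had risen and Eef2k had fallen. Of all genes, 31.6% rose and 31.8% fell to P15, and 35.2% and 36.4% to P28. Eef2kmt, which methylates eEF2, averaged 1.92 ± 0.45 CPM at P5 and 3.97 ± 0.88 at P28 (change 0.86, SE 0.23, adjusted p = 0.00164). Eef1akmt4 went from 1.51 ± 0.55 to 3.33 ± 0.48 CPM (0.83, SE 0.23, adjusted p = 0.00285), but 30.7% of its exon bases overlap another gene on the same strand. The rise of Eef1akmt1 to P15, 0.33 (adjusted p = 0.00385), did not pass without P15 replicate 1 (0.0566) or with total counts (0.0545).

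**Figure D3:**
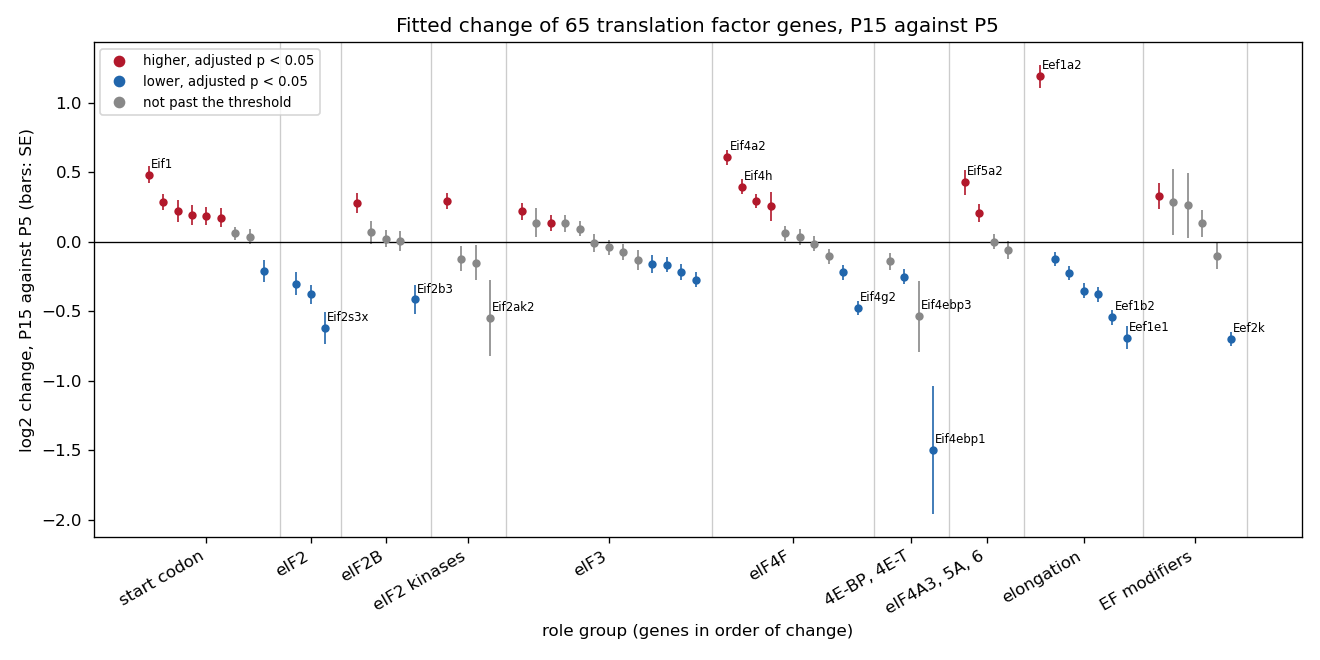
Fitted log2 change from P5 to P15 with its standard error for 65 tested members, grouped by role and ordered by size within a role. Red and blue mark members past the threshold upward and downward; the elongation group has 1 rise, Eef1a2, and 6 falls, and Eif2s3y is left out because libraries of the same age differ in it.

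Among the genes of the cap-binding complex eIF4F and related factors, the helicase pair shifted toward Eif4a2, its cofactors rose and the related scaffold Eif4g2 fell. Of the 10 tested members of this eIF4F group, 4 rose and 2 fell from P5 to P15, where 31.6% and 31.8% of all genes did. From P5 to P28, 3 rose and 5 fell, where 35.2% and 36.4% of all genes did. Eif4a2, a helicase form abundant in brain, measured 396, 428, 441, 482 and 450 CPM at P5, 505, 471 and 470 at P7, 591, 613 and 612 at P10, 643, 660 and 623 at P15, 723, 713 and 699 at P21, and 747, 772 and 731 at P28. P5 and P7 overlapped, and from P7 on each age lay above the one before without overlap. It rose by 0.61 (SE 0.052, edgeR adjusted p = 3.44e-10) to P15 and by 0.83 (SE 0.053, adjusted p = 5.81e-13) to P28. Eif4a1, the widely expressed form, measured 468, 458, 468, 509 and 491 CPM at P5 and 408, 402 and 387 at P15, and fell by 0.22 on the log2 scale (SE 0.055, adjusted p = 0.00127). Per kilobase, Eif4a2 went from 51.7% ± 1.1 of the pair at P5 to 65.3% ± 0.44 at P15 and 69.9% ± 0.33 at P28. The log2 ratio of the 2 genes moved by 0.81 and 1.11, again with no overlap of libraries and with the same exact permutation p of 0.0357 (0.0536 adjusted, or 0.0476 without the Eif3j pair).

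The helicase cofactors rose with Eif4a2. Eif4h, which stimulates eIF4A, measured 403, 374, 397, 441 and 426 CPM at P5 and 541, 498 and 506 at P15, with a log2 change of 0.40 (SE 0.054, edgeR adjusted p = 7.28e-07), and 549, 574 and 555 at P28 (0.51, SE 0.054). Every library from P10 on exceeded every P5 library. Eif4b, the other cofactor, rose from a P5 mean of 264 ± 27.9 CPM (SD, n = 5) to 299 ± 14.6 (n = 3) at P15 (0.29, SE 0.05, adjusted p = 1.87e-05) and 344 ± 8.9 at P28 (0.49, SE 0.05). Its P5 libraries of batch B, 297 and 293 CPM, overlapped the P15 values, whereas those of batch A, 245, 246 and 240, did not.

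Eif4g2, also called DAP5, a scaffold that lacks the eIF4E-binding part and serves cap-independent initiation, had the largest decline of the scaffolds. Its libraries measured 1167, 1206, 1266, 1225 and 1246 CPM at P5, 1031, 1044 and 1111 at P7, 936, 922 and 965 at P10, 862, 870 and 879 at P15, 747, 704 and 698 at P21, and 672, 675 and 660 at P28. The 6 ages followed each other without overlap. The log2 change was -0.48 to P15 (SE 0.05, edgeR adjusted p = 8.76e-09) and -0.86 to P28 (SE 0.05, adjusted p = 1.23e-13).

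Eif4g1, the main scaffold of the cap complex, depended on the batch. At P5 it measured 441, 442 and 446 CPM in batch A but 590 and 634 in batch B, and 595, 562 and 548 at P7, which is batch B as well. P10 gave 454, 449 and 450 CPM, P15 420, 440 and 499, P21 357, 336 and 333, and P28 333, 351 and 320. Within batch A its levels at P5 and P15 differed by less than the spread of the P15 libraries (log2 change 0.03, SE 0.059, edgeR adjusted p = 0.659). It fell by 0.41 on the log2 scale from P15 to P21 (SE 0.059, adjusted p = 1.6e-05), a step that coincides with the change to batch C and cannot be told apart from it. Its paralog Eif4g3 also fell at this step (-0.25, SE 0.052, adjusted p = 7.59e-04). Its difference between P5 and P28, -0.16, did not pass without P28 replicate 3 (adjusted p = 0.0614).

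Of the other cap-binding proteins, Eif4e2 (4EHP, a translational repressor) measured 67.1 ± 2.9 CPM (SD, n = 5) at P5, 61.0 ± 1.8 (n = 3) at P15 and 56.3 ± 3.3 at P28, and fell from P5 to P28 (log2 change -0.22, SE 0.057, edgeR adjusted p = 0.00128). The P15 difference did not pass (adjusted p = 0.104) but did with total counts (0.000571), with the stricter filter or no batch term (0.0263 each) and with P5 libraries of the same number summed (0.0365). Eif4e3 rose by 0.25 to P15 (adjusted p = 0.0357), a call lost without P5 batch A replicate 1 (0.156) or without P15 replicate 1, 2 or 3 (0.0524 to 0.129), with the stricter filter (0.0603) and with total counts (0.272).

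**Figure D4:**
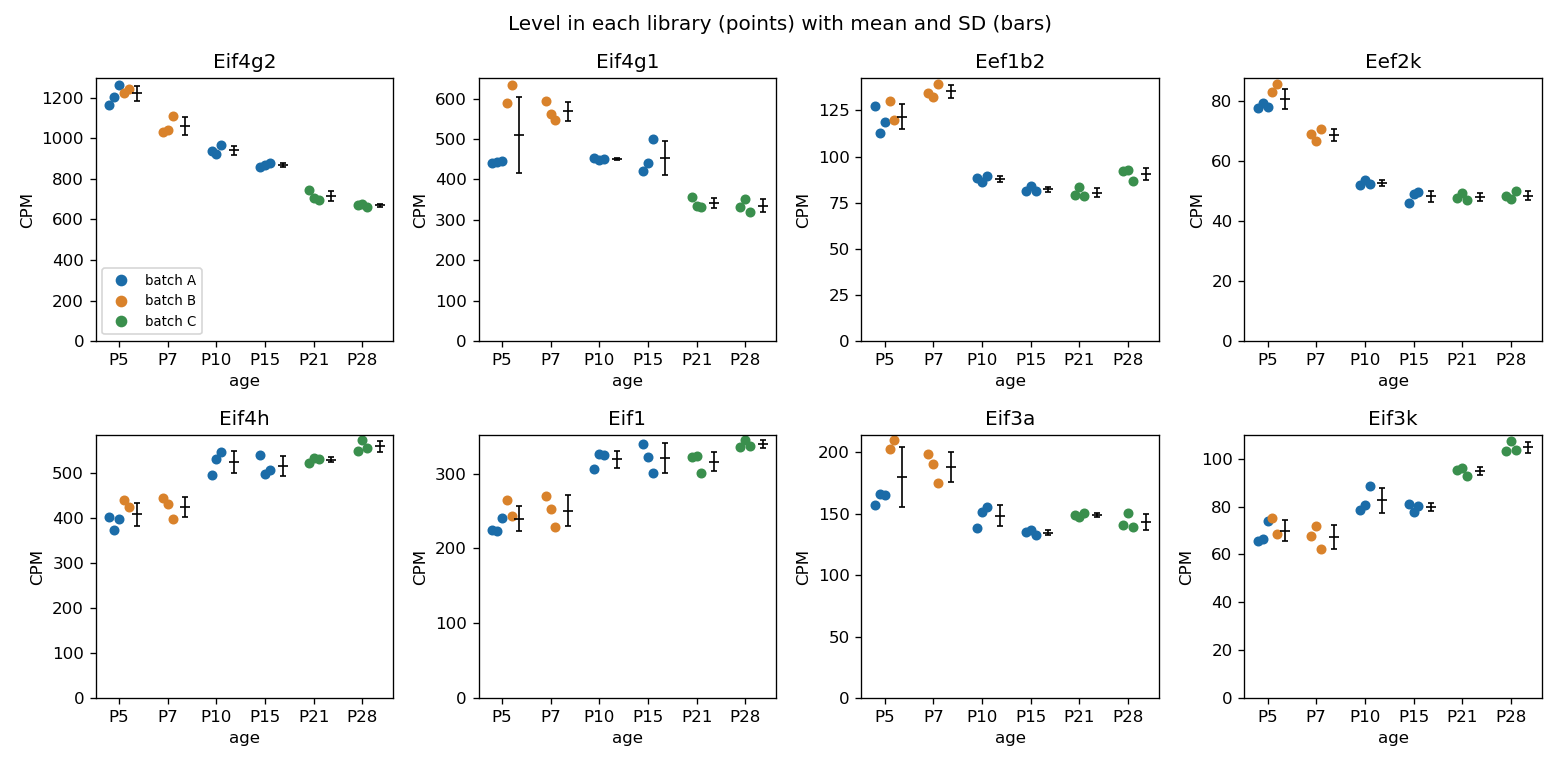
CPM of 8 members in each library by age, colored by batch, with mean and SD beside the points, on axes that start at 0. Eif4g2 steps down through all 6 ages, Eif4g1 and Eif3a separate the P5 libraries of batch B from those of batch A, Eef2k is level from P15 on, and Eef1b2 is lower in every library from P10 on than at P5.

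The proteins that hold eIF4E back were lower after P5 or did not pass. Eif4ebp2, the main 4E-binding protein of neurons, measured 85.2, 82.5, 88.9, 87.3 and 85.2 CPM at P5, 81.3, 81.5 and 85.8 at P7, 62.8, 66.1 and 63.0 at P10, 69.8, 72.8 and 73.0 at P15, 81.1, 71.4 and 73.7 at P21, and 79.0, 76.0 and 81.5 at P28. Its lowest age was P10 (log2 change from P5 -0.42, SE 0.056, edgeR adjusted p = 5.69e-07), it was still lower at P15 (-0.25, SE 0.055, adjusted p = 3.38e-04), and at P28 the difference did not pass (-0.12, adjusted p = 0.058). That difference passed with total counts (0.000797), the stricter filter (0.0145) and no batch term (0.0331), and without P5 batch A replicate 2 (0.0413) or P28 replicate 3 (0.0475). Eif4ebp1, a target of mTORC1, was scarce: 1.61, 0.926, 1.05, 1.43 and 1.28 CPM at P5 and 0.419, 0.155 and 0.684 at P15. The P15 library of 0.155 CPM stood at the level of 3 counts, and the fitted change of -1.50 (SE 0.46, adjusted p = 0.00667) has a correspondingly wide error. Eif4ebp3 fell by 1.14 on the log2 scale between P5 and P28 (SE 0.27, adjusted p = 5.63e-04) from 3.58 ± 1.1 CPM, but 67.3% of its exon bases overlap another gene on the same strand. Eif4enif1, which shuttles eIF4E into the nucleus and to P-bodies, rose from 50.8 ± 2.9 CPM at P15 to 60.8 ± 3.2 at P21 (0.26, SE 0.061, adjusted p = 0.00238), a step that also crosses from batch A to batch C. From P5 to P15 its change of -0.14 did not pass (adjusted p = 0.0505). It passed as lower in several other settings, among them total counts (0.000791), the stricter filter (0.0144) and limma-voom (0.0485). From P5 to P28 it passed, as higher, only without P28 replicate 3 (0.0463).

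The 3 subunits of eIF2 that are encoded on autosomes or X fell from P5 to P15, where 31.8% of all genes fell. Eif2s1, the alpha subunit that the stress kinases phosphorylate, had means of 52.4 ± 2.7 CPM (SD, n = 5) at P5 and 41.7 ± 4.1 (n = 3) at P15 (log2 change -0.30, SE 0.082, edgeR adjusted p = 0.00254). Its difference at P28, -0.24 (adjusted p = 0.0107), did not pass without P28 replicate 1 (0.0542) or replicate 3 (0.0808). Eif2s2, the beta subunit, went from 85.4 ± 7.1 to 62.4 ± 1.7 CPM at P15 (-0.38, SE 0.067, adjusted p = 2.88e-05) and 57.3 ± 4.2 at P28 (-0.50, SE 0.068). Eif2s3x, the X-linked gamma subunit, measured 32.0, 30.3, 27.1, 34.9 and 28.6 CPM at P5 and 20.4, 19.8 and 17.8 at P15 (-0.62, SE 0.12, adjusted p = 6.44e-05), and 20.7, 20.2 and 19.8 at P28. All libraries from P10 on lay below the lowest at P5. Within P10, Eif2s3x was at 23.6 CPM in the library with almost no Y-linked RNA and at 17.5 and 16.7 in the others. Within P15 it was at 20.4 CPM in the library with Y-linked RNA and at 19.8 and 17.8 in the others. The makeup of the libraries by Y-linked RNA, given below, differs between ages, and its part in the fall of Eif2s3x was not tested.

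Eif2s3y, the Y-linked copy of the gamma subunit, differed between libraries of the same age. It measured 15.4, 16, 29.2, 6.31 and 16.6 CPM at P5, 15.2, 34.7 and 33.1 at P7, 0.241, 29.0 and 28.5 at P10, 14.1, 0.413 and 0.0526 at P15, 0.179, 12.5 and 12.4 at P21, and 0.548, 0 and 0 at P28. Counts of 0 in 2 P28 libraries allow up to 0.157 and 0.172 CPM. Ddx3y, Kdm5d and Uty, other Y-linked genes that were picked with their values in view, moved with it. Ddx3y, for example, was at 0.301 CPM where P10 replicate 1 had 0.241 for Eif2s3y and at 52.0 and 55.0 in the other P10 libraries. Xist, the X-inactivation transcript, was also present in every P5 library, at 50.9 to 187 CPM, beside the Y-linked RNA. At P10, Xist measured 151 CPM in replicate 1, 6.87 in replicate 2 and 0.0602 in replicate 3. Together with the Y-linked values, this means that the P10 libraries do not all hold RNA of the same animals. The labels give no sex and no pooling of animals. The lower call of Eif2s3y between P5 and P28 by edgeR (adjusted p = 0.0111) was lost with limma-voom (0.156), and age and the makeup of the libraries cannot be told apart there, and it is not counted here among the subunits that fell. Between P5 and P15 it passed only without P15 replicate 1 (adjusted p = 0.0149).

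**Figure D5:**
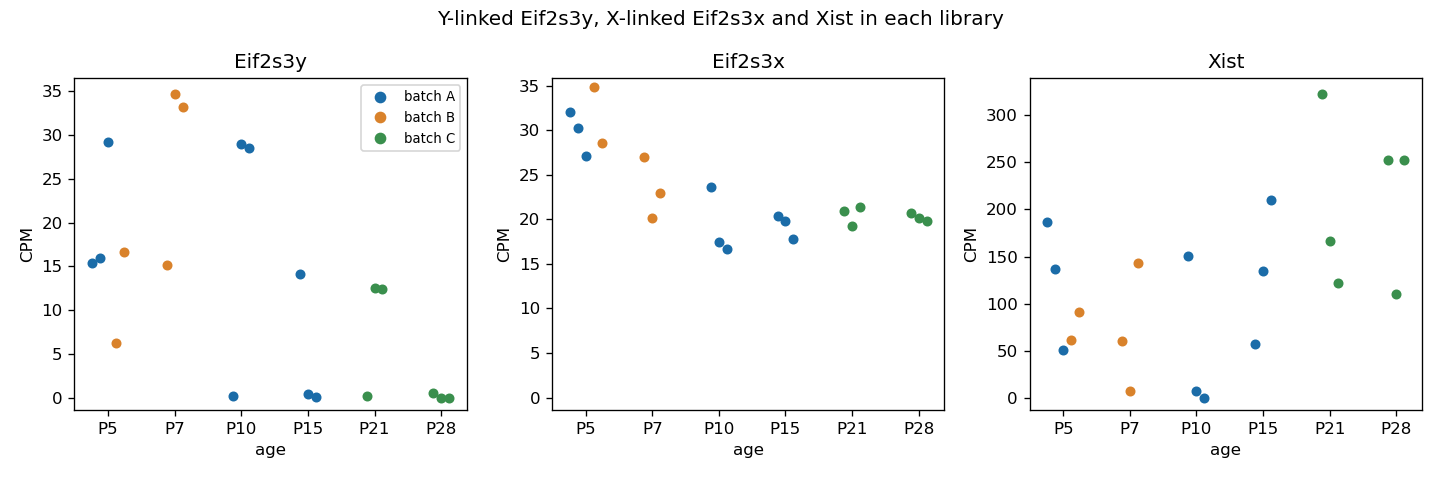
CPM of Eif2s3y, its X-linked copy Eif2s3x and Xist in each library by age, colored by batch. Eif2s3y lies below 0.6 CPM in 7 libraries of P10 to P28 and above 6 CPM in the other 13, whereas Eif2s3x stays between 16.7 and 34.9 CPM.

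Of the 5 genes of the exchange factor eIF2B, which reloads eIF2 with GTP, 1 rose (Eif2b4) and 1 fell (Eif2b3) at P15 against P5. The same 2 genes were called at P28 against P5. Of all genes, 31.6% rose and 31.8% fell in the P15 comparison, and 35.2% and 36.4% in the P28 comparison. Eif2b5, the catalytic subunit, measured 72.9 ± 5.3 CPM (SD, n = 5) at P5, 71.0 ± 5.0 (n = 3) at P15 and 64.0 ± 1.3 at P28 and did not pass in either (adjusted p = 0.794 and 0.06 in edgeR). The P28 difference passed as lower with total counts (adjusted p = 0.00041), the stricter filter (0.0149), no batch term (0.00822), P5 libraries of the same number summed (0.0162) and without P5 batch A replicate 2 (0.0226). At P15 Eif2b4 changed by 0.28 (SE 0.074, edgeR adjusted p = 0.00225) and Eif2b3 by -0.42 (SE 0.1, adjusted p = 0.00125). The P28 calls of both were lost without a single library: Eif2b3 without P5 batch A replicate 1 (0.103) or P28 replicate 3 (0.0627), and Eif2b4 without P5 batch A replicate 2 (0.0866) or P28 replicate 2 (0.0905), and with total counts (0.345).

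Among the eIF2 kinases, Eif2ak1, the heme-regulated kinase HRI that also relays mitochondrial stress, averaged 83.0 ± 5.2 CPM (SD, n = 5) at P5, rose to 97.6 ± 4.2 (n = 3) at P15 (change 0.29, SE 0.058, edgeR adjusted p = 1.06e-04) and 110 ± 1.8 at P28 (0.46, SE 0.058). Eif2ak3, the endoplasmic reticulum kinase PERK, measured 20.9 ± 0.74, 19.2 ± 1.9 and 20.1 ± 1.3 CPM at these ages and did not pass. Eif2ak2, the double-stranded RNA sensor PKR, was scarce, at 2.65, 2.55, 2.39, 1.72 and 2.52 CPM at P5 and 1.45, 0.903 and 0.662 at P10 (-1.33, SE 0.30, adjusted p = 5.11e-04). At P15 it measured 1.89, 1.91 and 1.37 CPM, and the difference from P5 did not pass (adjusted p = 0.0816). With total counts that difference passed as lower (-0.67, adjusted p = 0.0361). Eif2ak2 was also called lower at P28, which is in batch C, where its highest library, at 1.68 CPM, lay below every P5 library. Eif2ak4, the amino acid sensor GCN2, was lower at P28 than at P5 (-0.33, adjusted p = 0.026), a call lost without P5 batch A replicate 1 (0.0862) or P28 replicate 3 (0.0969).

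The start codon group mostly rose: 6 of 9 tested members were higher and 1 lower at P15, with a median change of 0.19 against -0.02 for all genes, and 5 and 1 at P28. Of all genes, 31.6% rose and 31.8% fell to P15, and 35.2% and 36.4% to P28. Eif1, which keeps the scanning ribosome from starting at a wrong codon, measured 224, 224, 241, 264 and 244 CPM at P5, 270, 253 and 229 at P7, 306, 327 and 324 at P10, 340, 322 and 300 at P15, 322, 324 and 301 at P21, and 335, 345 and 337 at P28. No library from P10 on overlapped the earlier ones, and the log2 change was 0.48 to P15 (SE 0.061, edgeR adjusted p = 2.31e-07). Eif1 has 13 near-identical annotated genes, so its level is uncertain. Its paralog Eif1b rose by 0.29 (SE 0.057, adjusted p = 1.23e-04). With total counts, 4 of the 6 rises of this group, those of Eif2a, Eif2d, Eif5b and Eif1ad, missed the threshold, and these 4 are named after their values were seen. The 1 fall, of Eif1a (-0.21, adjusted p = 0.021), was lost without P5 batch A replicate 2 (0.0977), P15 replicate 2 (0.0559) or P15 replicate 3 (0.0848).

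The eIF3 complex, the largest initiation factor, had subunits called in both directions. Of 13 tested subunits, 2 rose and 4 fell from P5 to P15, and 7 rose and 3 fell from P5 to P28, which is in batch C. Of all genes, 31.6% rose and 31.8% fell to P15, and 35.2% and 36.4% to P28. With total counts, the 2 rises to P15, of Eif3k and Eif3g, and the P28 rises of Eif3i and Eif3e missed the threshold. Falls of Eif3b, Eif3c and Eif3e to P15 and of Eif3f and Eif3h to P28 then passed. Eif3a, the largest core subunit, measured 157, 166, 165, 203 and 210 CPM at P5, the last 2 in batch B, and 135, 137 and 132 at P15 (log2 change -0.27, SE 0.055, edgeR adjusted p = 1.42e-04). Eif3k, a peripheral subunit, measured 65.5, 66.3, 74.0, 75.3 and 68.6 CPM at P5, 81.1, 77.9 and 80.2 at P15, 95.5, 96.3 and 92.9 at P21 and 103, 108 and 104 at P28. These 4 ages did not overlap, and the log2 change was 0.22 to P15 (SE 0.063, adjusted p = 0.00427), which did not pass with total counts (0.149), and 0.61 to P28 (SE 0.063, adjusted p = 4.29e-09). Eif3c, a core subunit, rose by 0.27 from P15 to P21 (SE 0.056, adjusted p = 6.52e-04), the step between batches, and its difference between P5 and P28 (0.27) did not pass without the batch term (0.0635). Eif3j1 and Eif3j2 are 99.4% identical over 2379 bases so reads from that stretch could come from either, and how they were counted is not given in the sources used here.

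Of the remaining initiation-related members, Eif5a2 rose and Eif5a did not pass. eIF5A, the only protein known to carry hypusine, frees ribosomes stalled at prolines, and Eif5a2 is its scarcer paralog. Eif5a2 measured 17.1, 18.3, 19.9, 19.1 and 17.4 CPM at P5, 15.6, 16.1 and 17.8 at P7, 24.7, 20.6 and 22.7 at P10, 23.7, 23.9 and 26.7 at P15, 26.9, 27.2 and 30.8 at P21, and 28.2, 29.0 and 32.2 at P28. Libraries from P10 on lay above all earlier ones, with a log2 change of 0.43 to P15 (SE 0.09, edgeR adjusted p = 2.32e-04) and 0.69 to P28 (SE 0.09, adjusted p = 2.3e-07). Eif5a measured 362 ± 16.6 CPM (SD, n = 5) at P5 and 366 ± 18.9 (n = 3) at P15 (adjusted p = 0.997). Eif4a3, the helicase of the exon junction complex, rose by 0.20 to P15 (adjusted p = 0.00808), which did not hold without P15 replicate 1 (0.124), with total counts (0.227), with no batch term (0.0544) or with P5 libraries of the same number summed (0.0594). Eif6, which keeps the large subunit from joining early, was lower at P28 (-0.19, adjusted p = 0.0119), a call lost without P5 batch A replicate 2 (0.0617) or P28 replicate 3 (0.0538), or with no batch term (0.0559).

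Across the paralog pairs, log2 count ratios within a library also moved for Eif5a2 over Eif5a (0.42 from P5 to P15 and 0.72 to P28), Eif1b over Eif1 (-0.19 and -0.29) and, at P28, Eif4g3 over Eif4g1 (0.32) and Eif4e2 over Eif4e (-0.35). These 6 differences and those of Eif1a over Eif1ax (-0.28) and Eif4e3 over Eif4e (0.25) at P15 had no overlap between libraries and the exact permutation p of 0.0357, 0.0536 after adjustment. With 12 of the 18 tests at the smallest possible p, none of the 18 passed. That outcome depends on the Eif3j pair, whose Eif3j2 had too few counts for the fit across genes: with this pair left out, a choice made after seeing the data, the 12 had an adjusted p of 0.0476 over 16 tests and passed.

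Step by step, most calls were made between P5 and P10. From P5 to P10, 18 members rose and 14 fell, where 30.8% and 30.6% of all genes did (61.4% called). From P5 to P7, which rests on batch B, none rose and 7 fell, where 6.15% of all genes rose and 4.89% fell (11% called). These were Eif2s3x, Eef1e1, Eif2s2, Eef2k, Eif4a1, Eif4enif1 and Eif4g2, with log2 changes between -0.44 and -0.22. Without P5 batch B replicate 1 the count was 1, Eef2k, which fell by 0.29 (SE 0.056, edgeR adjusted p = 0.00108) with all libraries. Eif4enif1 was also lost without any other P5 or P7 library of batch B, Eif2s3x without P7 replicate 2 (adjusted p = 0.0906) or replicate 3 (0.0534), and Eif4g2 without P5 batch B replicate 3 (0.0845). With total counts 35 members fell, where 3035 of 15373 genes were called and 18% of these were higher. The median of all genes then went from 0.01 to -0.10. Between P10 and P15 no member passed in edgeR, DESeq2 or limma-voom (4.36% of all genes called), and 12, 11 and 12 had an unadjusted p under 0.05. From P15 to P21, 7 rose and 8 fell, where 14% and 14.8% of all genes did (28.8% called). Between P21 and P28, within batch C, none passed with any of the 3 tools (0.254% of all genes called), with 13, 12 and 14 at an unadjusted p under 0.05, of which 12 of the 13 in edgeR were higher at P28. The share and direction of all genes at an unadjusted p under 0.05 were not counted, for this step or for P10 to P15. The unadjusted counts therefore show nothing particular to the members. Over the whole span from P5 to P28, 22 members rose and 25 fell, where 35.2% and 36.4% of all genes did (71.6% called). With total counts 17 and 34 members did, where 10929 of 15373 genes were called and 40.9% of these were higher. In all, 30 members had the same call at P15 and at P28 against P5, and 0 had opposite calls. The 2 comparisons share their P5 libraries, and the same count over all genes was not made. These 2 counts therefore show nothing particular to the members.

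At P5 itself, 7 members were higher and 1 lower in batch B than in batch A, where 6.65% of all genes were higher and 3.42% lower (10.1% called). The higher ones were led by Eif4g1 (log2 difference 0.47, SE 0.065, edgeR adjusted p = 7.1e-05), Eif3a (0.34, SE 0.061) and Eif3c (0.29, SE 0.062). The lower one was Eef1akmt4 (-0.94, SE 0.30, adjusted p = 0.0419). Without P5 batch A replicate 2 the count was 5, without P5 batch B replicate 3 it was 3, and by DESeq2 it was 13. Eif3c did not pass without P5 batch B replicate 3 (adjusted p = 0.0519), nor did Eef1akmt4 without it (0.367) or without P5 batch A replicate 1, 2 or 3.

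Of the 9 members with a TOP tract at 1 annotated GENCODE start, 6 fell from P5 to P15 and 2, Eif4a2 and Eif2b4, rose, with a median of -0.17. Of all genes tested, 31.6% rose and 31.8% fell. Of the 57 tested members without a match at an annotated GENCODE start, 16 rose and 14 fell, with a median of 0.00. Those that fell with a tract were Eef1b2, Eef1d, Eif2s1, Eif2s3x, Eif3f (-0.16, SE 0.056, edgeR adjusted p = 0.0128) and Eif4g2, whose sequences are shown above, and Eif3m did not pass (-0.01). Of the 2 with the tract also at the RefSeq start, Eif2s3x and Eif3f, both fell. The call of Eef1d was lost in the settings given above. These counts are a description of the annotation and the calls. Eef1a1 and Eef2, which also fell, had no match at their annotated starts, which does not show that their mRNAs lack a tract. For Eef1a1 the letters CTTCCC begin at the base just before the RefSeq start, so it stands among the 57 only by the annotated base. Shifted starts were not searched in the members, so the split into 9 and 57 depends on the annotated base.

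Genes that act on the translation factors moved in both directions too, where 31.6% of all genes rose and 31.8% fell from P5 to P15 with a median change of -0.02. Of 13 genes of mTORC1 and its regulators, 4 rose and 4 fell from P5 to P15 (median 0.05): Pdcd4, an inhibitor of eIF4A, went from 129 ± 7.6 CPM (SD, n = 5) to 206 ± 14 (n = 3) and rose by 0.73 (SE 0.076, edgeR adjusted p = 8.37e-09), Rheb, the GTPase that activates mTORC1, rose by 0.44, and its relative Rhebl1 (-1.50) and the brake Tsc1 (-0.33) fell. Tsc1 averaged 63.5 ± 3.2 CPM at P5, 49.5 ± 2.3 at P15 and 65.7 ± 3.4 at P28, where the difference from P5 did not pass (adjusted p = 0.28). Of 22 genes grouped here as regulators of poly(A) tail and cap, 11 rose and 5 fell (median 0.09). These counts include Dap, whose role at the tail or cap was not checked. Cpeb1, which binds cytoplasmic polyadenylation elements, averaged 5.29 ± 0.55 CPM at P5 and 29.2 ± 2.3 at P15 (change 2.47, SE 0.11, adjusted p = 1.4e-15) and Cpeb3 rose by 0.89, whereas Dap (-1.44) and Paip2b (-0.51) fell. Of the 11 tested genes of the integrated stress response, the program set off by eIF2 kinases, 6 rose and 1 fell (median 0.27). Impact, a neuronal inhibitor of GCN2 activation, went from 43.5 ± 4.6 to 126 ± 3.2 CPM (1.61, SE 0.099, adjusted p = 1.09e-11) and Ddit3 rose by 0.54, while Gcn1, the activator of GCN2, fell by 0.30 on the log2 scale. Among 9 genes of termination and recycling, 4 rose and 2 fell (median 0.12), with the release factor GTPase Gspt1 lower (-0.40) and its paralog Gspt2 higher (0.46), Mcts2 higher (0.66) and Hbs1l lower (-0.24). Of 9 genes that build hypusine and diphthamide, the modified residues of eIF5A and eEF2, 2 rose (Dohh, 0.47, and Dph6, 0.32) and 2 fell (Dph3, -0.31, and Dph2, -0.26), with a median of 0.09. From P5 to P28, where 35.2% of all genes rose and 36.4% fell with a median of -0.01, 4 of the 13 mTORC1 genes rose and 3 fell (median 0.04), and 12 of the 22 poly(A) and cap regulators rose and 8 fell (0.30). In the same comparison 7 and 1 of the stress response genes rose and fell (0.33), 5 and 2 of those of termination and recycling (0.18), and 3 and 1 of those for hypusine and diphthamide (0.13).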

How the data were processed

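The deposited file held raw whole-number counts per gene symbol for the 20 libraries, with no normalization, per the file headers and its values. Per the labels' protocols, RPL22-HA ribosomes were pulled down and poly-A RNA went into stranded libraries. Per the submitters' processing notes, STAR 2.7.5b, featureCounts, SAMtools 1.10 and mm10 were used; for annotation, strand setting and multi-mapping reads the setting was not given in the sources used here. By GENCODE vM21, 19 members have another gene with at least 95% identity over 300 bases, and 43.3% of the exon bases of Eif3d overlap an antisense gene, so these levels are uncertain.

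Counts were fitted with edgeR 4.0.16 (R 4.3.3): TMM scaling, the default low-count filter by age (at least 10 counts, 15373 genes kept), robust quasi-likelihood, 6 age means and a term for batch B, 13 residual degrees of freedom, Benjamini-Hochberg threshold 0.05. The batch term makes changes from P5 rest in effect on batch A (on batch B for P7), whereas mean CPM at P5 is over all 5 libraries. SE is the log2 change over the root of F. CPM is relative to the TMM-scaled library total, and levels per kilobase use the longest transcript. The test was checked on simulated counts. Total counts were 15.9 to 24.9 M, the biological coefficient of variation was 8.46%, and replicate pairs differed by more than counting error (chi-square at least 3.85 times its degrees of freedom).

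Alternatives were DESeq2 1.42.0 and its size factors, total counts, limma-voom (limma 3.58.1), no and a stricter filter (50 counts), no batch term, P5 batch B left out or summed by number, the replicate block, each library left out and, added after seeing the data, the Eif3j pair left out of the paralog adjustment. Named genes are a fixed panel, the 6 highest and 6 lowest called changes for P15 and P28 against P5, the 3 highest and 3 lowest of other comparisons, the extremes of each role group and, per pathway list, the 2 highest and 2 lowest called genes. Genes named for a TOP tract, an overlap, or a lost or gained call are outside this choice and were picked with their values in view. Members, lists and tests were chosen with earlier results of these data known.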

Additional observations from a re-analysis of the deposited data

Results flagged for a closer look

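Among the 66 tested members, the 5 libraries of P5 were searched for a library that stands apart from the other 4, and 3 members had one; chance alone gives about 1 in 20 groups. Eef2 was lowest in P5 batch A replicate 2, at 1262 CPM, where the others measured 1318 to 1340. Eif2ak2, a scarce mRNA, was lowest in P5 batch B replicate 1, at 1.72 CPM, against 2.39 to 2.65. Eif2ak4 was highest in P5 batch B replicate 3, at 29.2 CPM, against 19.4 to 21.9. The P7 libraries, of the same batch, had 25.7, 25.1 and 31.8 CPM of Eif2ak4.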

How the results depend on the processing

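Counts of called members were within 1.5 times of the values given in most settings. The exceptions were P7 against P5, with 7 members, which gave 35 with total counts, 14 with no batch term, 20 when batch B was dropped at P5 and 15 with P5 libraries of the same number summed, and batch B against batch A at P5, with 8, which gave 13 by DESeq2. Of all genes, the P7 comparison called 1698 in the main fit and 3035, 3586, 4573 and 3571 in these 4 settings. The batch comparison called 1548 in the main fit and 1799 by DESeq2. With 1 library left out, the counts ran from 51 to 57 by age, 27 to 32 (P10 against P5), 0 to 1 (P15 against P10), 31 to 38 (P15 against P5), 11 to 12 (P21 against P15), 0 to 0 (P28 against P21), 41 to 47 (P28 against P5), 3 to 7 (batches at P5) and 1 to 7 (P7 against P5). The 1 at P15 against P10 was Eif1a without P10 replicate 2 or Eif3b without P15 replicate 1. Total counts moved the split of P10 against P5 from 18 higher and 14 lower to 10 and 27, where 9542 of 15373 genes were called and 37.6% of these were higher. They also moved the change of Eif5 from P5 to P28 from 0.01 to -0.11 (edgeR adjusted p = 0.0469). For P15 against P5 with batch B dropped at P5, all 47 named members kept their direction and side of the threshold. The batch term already makes this comparison rest in effect on batch A, so this setting could hardly differ and is no check of it.

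Of 57 pairs of libraries with the same number in different groups, 7 had a correlation of deviations over 0.1 (range -0.256 to 0.248), so the numbers do not pair the samples. With the replicate block, 40 members passed for P15 against P5, 47 for P28 against P5, 32 for P10 against P5, 8 for P7 against P5, 16 for P21 against P15 and 9 between batches. No value for the batches could be had without the batch term or with batch B at P5 dropped or summed. Eif2s3y over Eif2s3x gave no ratio because of counts of 0. With the Eif3j pair left out of the adjustment, chosen after seeing the data, 12 log2 ratio differences passed (exact permutation test, adjusted p = 0.0476): 1.54 and 1.69 (Eef1a2 over Eef1a1, P15 and P28), 0.81 and 1.11 (Eif4a2 over Eif4a1), 0.42 and 0.72 (Eif5a2 over Eif5a), -0.19 and -0.29 (Eif1b over Eif1), and -0.28 (Eif1a over Eif1ax, P15), 0.25 (Eif4e3 over Eif4e, P15), 0.32 (Eif4g3 over Eif4g1, P28) and -0.35 (Eif4e2 over Eif4e, P28).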
